A study of Mus musculus with 20 samples.

Results

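Apoe, Plac8, Prg2, Pon3, St8sia6, Atp1b1 and Isg20 are 7 of the 16047 genes in a single-cell count table of mouse B and plasma cells. They were listed because they had stood out in the cells annotated as on the way to the plasma cell fate, so their levels by state and by sort gate chose them and are given here as a description without a test. All 7 were found in the table by symbol. The label "genes marking pre-plasma states" held for part of the list only. Plac8, St8sia6, Atp1b1 and Pon3 had pooled levels above the germinal centre states in the activated pre-plasma state. The Plac8 range there overlapped that of light zone cells. Prg2 was above the germinal centre level too, but far below its plasma-state level. Unlike the activated cells, most plasma-state cells were in G1 phase, and what phase contributes to this gap was not tested. Isg20 was at the germinal centre level, and Apoe was almost missing from the activated state while it was abundant in germinal centre B cells.

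The cells were eYFP-positive B and plasma cells from lymph nodes of C57BL/6 mice, immunised with the hapten-carrier NP-KLH in Sigma Adjuvant System and given tamoxifen by gavage. They were taken at day 15 of the primary response, 4 days after tamoxifen, so all groups share the immunisation, the tamoxifen and the eYFP selection. The driver of the eYFP label, the number of mice and their ages are not given in the sources used here. Single cells were index-sorted into plates, which records each cell's surface fluorescence, and sequenced from the 5′ end by the FB5P-seq protocol.

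The authors annotated each cell with 1 of 7 states. These were dark zone (DZ, 452 cells), light zone (LZ, 278), light-to-dark zone (LZtoDZ, 48), pre-memory (preMem, 17), activated pre-plasma (prePC.Act, 29), memory-like pre-plasma (prePC.Mem, 63) and plasma (PC, 480). The same cells carry 1 of 4 sort gates, named DZ, LZ, PrePC and PC. The pre-plasma gate is therefore a sort, and the pre-plasma states are annotations made from RNA, so the 2 do not hold the same cells.

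Plasma cells arise from germinal centre B cells when the repressor Blimp-1 shuts down the B cell programme and the cell rebuilds its secretory pathway for antibody export. Germinal centre B cells divide in the dark zone and are selected in the light zone, and cells that leave toward the plasma fate pass through a dividing plasmablast stage. Apoe encodes apolipoprotein E, a carrier of cholesterol and other lipids. Pon3 encodes a paraoxonase, a lactone-cleaving enzyme bound to the endoplasmic reticulum and to lipoproteins. Isg20 encodes an interferon-inducible 3′ to 5′ exonuclease for RNA. Prg2 encodes the major basic protein of eosinophils. Plac8 encodes a small cysteine-rich protein, St8sia6 a sialyltransferase that builds ligands for inhibitory Siglec receptors, and Atp1b1 the beta subunit of the sodium pump.

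The table held 1367 cells on 20 plates, 10 plates with 626 cells labelled C57BL/6F and 10 with 741 cells labelled C57BL/6M. Plate totals ran from 3208858 to 11908095 counts, except plate 6, which held 10 cells and 5979 counts in all. The median cell had 60536 counts, and the 94 well barcodes recur on several plates, with no 2 cells holding identical counts. Depth differed between states: activated pre-plasma cells had a median of 229914 counts and 3691 genes, plasma cells 70190 and 1510, and memory-like pre-plasma cells 16638 and 376, with 15 of the 63 under 5000 counts. Germinal centre markers summed to 2958 CPM in the 3 germinal centre states and to 124 CPM in the plasma state, and plasma cell markers to 4217 and 20379 CPM. Levels are given as CPM, a gene's counts over all counts of the pooled cells of a class on the usual counts-per-million scale. A share of cells with the gene was read after every cell was thinned to 5000 counts, with exact Clopper-Pearson 95% intervals that cover counting error only.

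The upstream sequences of the listed genes were searched for motifs of the pathways their names point to, since the data show Pon3, Prg2 and Isg20 high together and Isg20 is named for interferon. RefSeq start-site windows (250 bases before to 50 after a start, build GRCm38.p6) were at hand for 6 of the 7 genes, Prg2 having no entry. Isg20 has several start sites, and the window of the second, chr7:78913515-78913814 on the plus strand, is shown because it holds the only searched stress-response match among the listed genes. The capitals mark the core TGACGTG of the element bound by the unfolded protein response factor XBP1, read here on the minus strand as CACGTCA. For comparison the single window of Pon3, chr6:5256184-5256483 on the minus strand, holds none of the searched motifs.
Isg20, window 2: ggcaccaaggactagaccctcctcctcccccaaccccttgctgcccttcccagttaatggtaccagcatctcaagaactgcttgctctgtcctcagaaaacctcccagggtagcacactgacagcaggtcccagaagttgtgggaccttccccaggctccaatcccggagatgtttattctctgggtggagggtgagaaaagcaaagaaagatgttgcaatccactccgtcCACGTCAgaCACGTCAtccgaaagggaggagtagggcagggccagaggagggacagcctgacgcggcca
Pon3: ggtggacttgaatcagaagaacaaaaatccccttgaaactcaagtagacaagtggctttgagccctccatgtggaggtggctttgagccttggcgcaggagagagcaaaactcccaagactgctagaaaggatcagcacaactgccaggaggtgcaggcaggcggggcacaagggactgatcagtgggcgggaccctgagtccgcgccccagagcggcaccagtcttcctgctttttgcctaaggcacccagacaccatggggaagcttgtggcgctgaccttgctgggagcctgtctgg
The 2 matches in Isg20 start at -19 and -10 from the start site. This core is found in 2.01% of all 32851 windows on either strand. The interferon-stimulated response core (GAAA, any 2 bases, GAAA) is in 3.44% of all windows, the composite core (GGAA, any 2 bases, GAAA) bound by PU.1 or SpiB with IRF4 in 2.72%, the palindromic E-box CACGTG in 7.15% and the stress element (CCAAT, any 9 bases, CCACG) in 0.119%. None of these 4 was in any window of the 6 genes. The CCAAT box, which is part of that stress element, is in 37.4% of all windows and was found in Plac8 windows 1 and 2, in the Atp1b1 window and in Isg20 window 2. A match is a run of letters and not a shown site of binding.

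Apoe was lowest of all states in the activated pre-plasma cells. There it stood at 5.07 CPM in C57BL/6F and 13.8 in C57BL/6M, against 3025 and 3695 in the memory-like pre-plasma cells. Between them lay pre-memory (3008 CPM over both), LZ (1447), DZ (1227), plasma (799) and LZtoDZ (399.7), and no pair of neighbours in this order overlapped in the values of the 2 sampleIDs, although the plates of DZ (351 to 1755 CPM) and LZ (253 to 3545) did. Activated against germinal centre B states (DZ, LZ and LZtoDZ weighted equally on the log scale), the fitted log2 difference was -6.58 ± 0.49 (SE, 2 sampleIDs). After thinning, 6.90% of activated cells had an Apoe count (0.846 to 22.8), against 57.4% of germinal centre cells. At full depth 65.5% of activated cells had one, with a median of 2 counts in those that did. The memory-like level rests on few cells, since 5 of the 63 cells gave 62.4% of their Apoe counts and the 6 plates with at least 5 such cells ran from 0 to 9658 CPM.

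**Figure D1:**
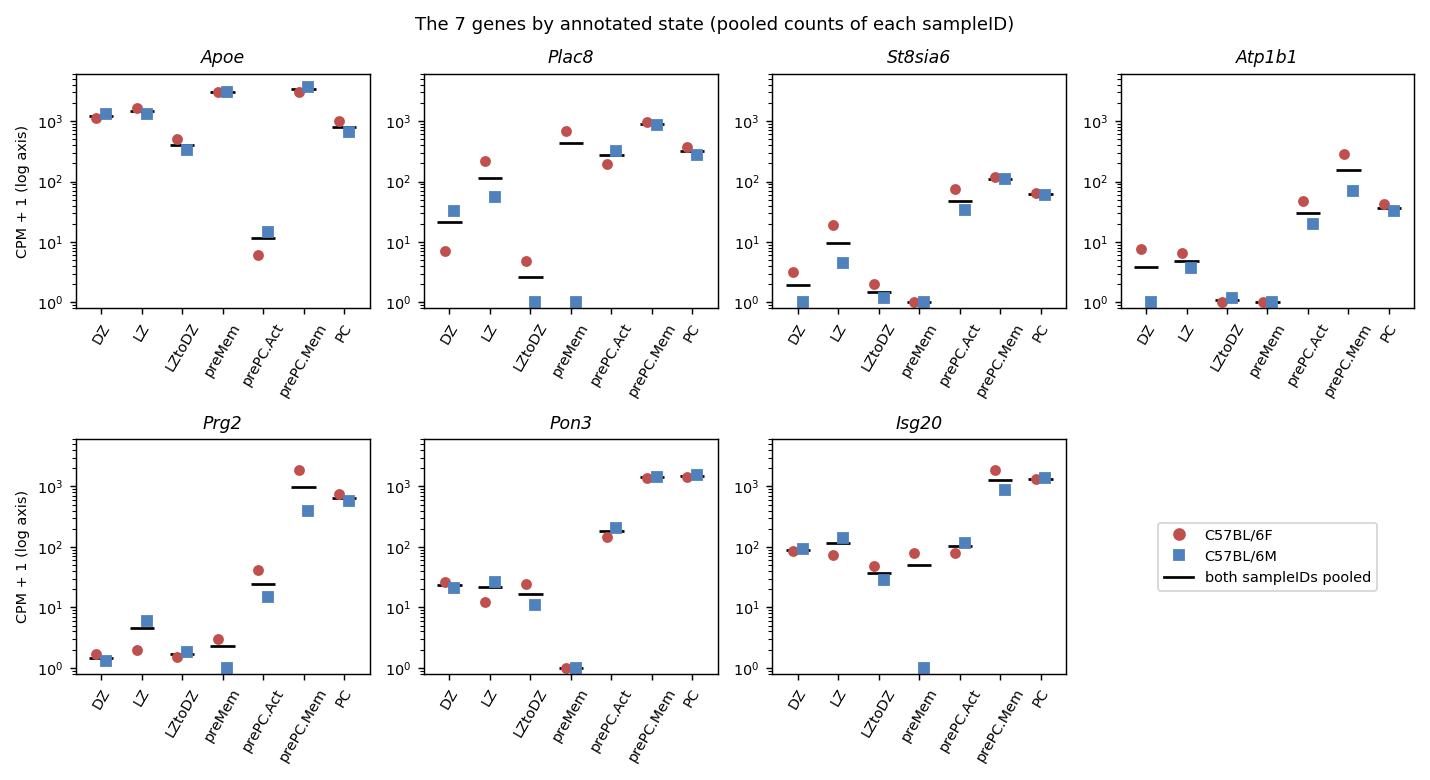
Level of each gene (CPM + 1, log axis) in the 7 annotated states; circles are the pooled cells of C57BL/6F, squares those of C57BL/6M, and bars both pooled. Apoe drops to 10.6 CPM in prePC.Act, where the pooled levels of Plac8, St8sia6, Atp1b1, Prg2 and Pon3 stand above the 3 germinal centre states. By sampleID, Plac8 in prePC.Act overlaps LZ.

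Plac8, St8sia6 and Atp1b1 were the members of the list that were already present in the activated state at about the plasma-state level. Plac8 stood at 196 CPM in C57BL/6F and 317 in C57BL/6M in activated cells and at 377 and 276 in plasma cells, so these ranges overlapped. St8sia6 stood at 74.2 and 32.2 CPM in activated cells and at 64.7 and 58.1 in plasma cells, again overlapping. Atp1b1 stood at 46.3 and 19.0 CPM in activated cells and at 41.7 and 31.9 in plasma cells. All 3 had lower pooled levels in the germinal centre states. DZ, LZ and LZtoDZ ran from 1.60 to 112 CPM for Plac8, from 0.501 to 8.73 for St8sia6 and from 0.100 to 3.77 for Atp1b1. By sampleID, Plac8 in LZ stood at 54.6 and 217 CPM, which overlapped its activated range. The fitted log2 differences of activated against germinal centre states were 4.19 ± 1.19, 5.16 ± 1.14 and 4.84 ± 1.26 (SE). In these fits the low LZtoDZ level counts as much as that of LZ. For Plac8 the means of the fitted pools were 245 CPM in activated and 55.0 CPM in germinal centre states, a smaller gap than 4.19 on the log2 scale.

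By the share of thinned cells, Plac8 was found in 44.8% of activated cells (26.4 to 64.3) and 23.2% of plasma cells (19.5 to 27.3), an order opposite to that of the pooled CPM (273 and 320), so none is read from it. St8sia6 was found in 20.7% of activated cells (7.99 to 39.7) and 11.7% of plasma cells (8.97 to 14.9), intervals that overlap. Atp1b1 was found in 10.3% and 5.44%, also overlapping. All 3 had their highest pooled level in the memory-like state, at 903, 111 and 152 CPM. These levels came from a handful of cells: 5 cells gave 91.2% of the Plac8 counts, 6 of 63 cells held any St8sia6 and 3 held any Atp1b1. In the plasma state the plates also spread widely, from 1.19 to 794 CPM for Plac8, from 2.72 to 135 for St8sia6 and from 0 to 202 for Atp1b1. The memory-like level was inside that range for St8sia6 and Atp1b1 and above it for Plac8. Plac8 was next highest in the 17 pre-memory cells, at 437 CPM pooled and at 0 and 680 by sampleID.

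Pon3, Prg2 and Isg20 had their highest pooled levels in the memory-like and plasma states. By the share of thinned cells, however, the memory-like state lay well below the plasma state. Pon3 was found in 19 of 48 memory-like, 12 of 29 activated and 401 of 478 plasma cells. Isg20 was found in 17, 7 and 400 of these cells, and Prg2 in 7, 2 and 180. Over the 6 plates with at least 5 memory-like cells, Pon3 ran from 316 to 2883 CPM. Prg2 ran from 0 to 5217 CPM there and Isg20 from 9.67 to 4054. Pon3 stood at 1432 CPM in C57BL/6F and 1557 in C57BL/6M in plasma cells, at 1398 and 1436 in memory-like cells and at 147 and 207 in activated cells. The first 2 states overlapped and the activated state lay below both, yet above DZ, LZ and LZtoDZ, which ran from 15.4 to 22.2 CPM. The fitted log2 difference of activated against germinal centre states was 3.18 ± 0.38 (SE). No Pon3 count was seen in any of the 17 pre-memory cells, which allows up to 17.6% of such cells to have a count at this depth (3 over the number of cells).

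Prg2 stood at 741 and 571 CPM in plasma cells and 1897 and 393 in memory-like cells, overlapping ranges. It was at 40.5 and 13.8 CPM in activated cells and at most 3.57 pooled in any germinal centre state. The fitted log2 difference of activated against germinal centre states was 4.49 ± 0.66 (SE), from 179 Prg2 counts in the activated cells. Of the 29 activated cells 5 held Prg2 at full depth, and 6.90% did after thinning (0.846 to 22.8), against 37.7% of plasma cells (33.3 to 42.2).

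Isg20 stood at 1306 and 1359 CPM in plasma cells and at 1907 and 887 in memory-like cells. In activated cells it was at 78.2 and 116 CPM, which overlapped LZ (114 over both) and DZ (89.1), with a fitted log2 difference from germinal centre states of 0.47 ± 0.73 (SE). The activated level of Isg20 thus lay among those of the germinal centre states. All 29 activated cells came from the pre-plasma gate, and 1 was called G1, 12 S and 16 G2M. Of the plasma-state cells 75.6% were in G1, so the 2 states also differed in phase. Plate pools of plasma-state cells in S or G2M had medians of 84.7 CPM for Prg2, 810 for Pon3, 788 for Isg20 and 68.8 for Apoe. What phase contributes to the gaps between activated and plasma-state levels was not tested.

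The memory-like state was mixed by gate, with 27 cells from the pre-plasma gate and 33 from the plasma gate. Pon3 stood at 466 CPM in the first and 3413 in the second, Isg20 at 941 and 2017, Prg2 at 1206 and 657 and Apoe at 3651 and 2210. A further fit kept only the pre-plasma-gate cells of the memory-like state, but plasma-state cells of all gates. The gates were thus not matched, and the log2 difference of memory-like against plasma state moved from -0.02 to -2.06 for Pon3. The other listed genes also shifted down relative to the plasma state there, except Prg2 (0.82, against 0.69).

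The sort gates gave a view that does not depend on the state annotation. Of the 282 pre-plasma-gate cells 128 were annotated plasma, 97 germinal centre (DZ, LZ or LZtoDZ), 29 activated, 27 memory-like and 1 pre-memory. Levels of this gate therefore pool these states. With the DZ and LZ cells of a plate pooled, Plac8 ran from 0 to 82.3 CPM with a median of 0, and on the pre-plasma gate side of the same 19 plates from 83.9 to 878 with a median of 315. These ranges only just missed each other, and they overlapped with the DZ gate (up to 94.0 CPM) or the LZ gate (up to 153) taken alone. Plac8 was the 1 of 7 genes with pooled ranges apart, where 0.61% of 7217 genes had plate ranges apart. Isg20 ran from 213 to 1197 CPM (median 583) on the pre-plasma gate side, and was higher than in the germinal centre gates on 19 of 19 plates that held both. Pon3 was higher on 19 of 19, Prg2 and St8sia6 on 18 and Atp1b1 on 16. Atp1b1 had no count in any cell of the LZ gate, which allows up to 0.817% of them to have a count at this depth by the same limit.

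**Figure D2:**
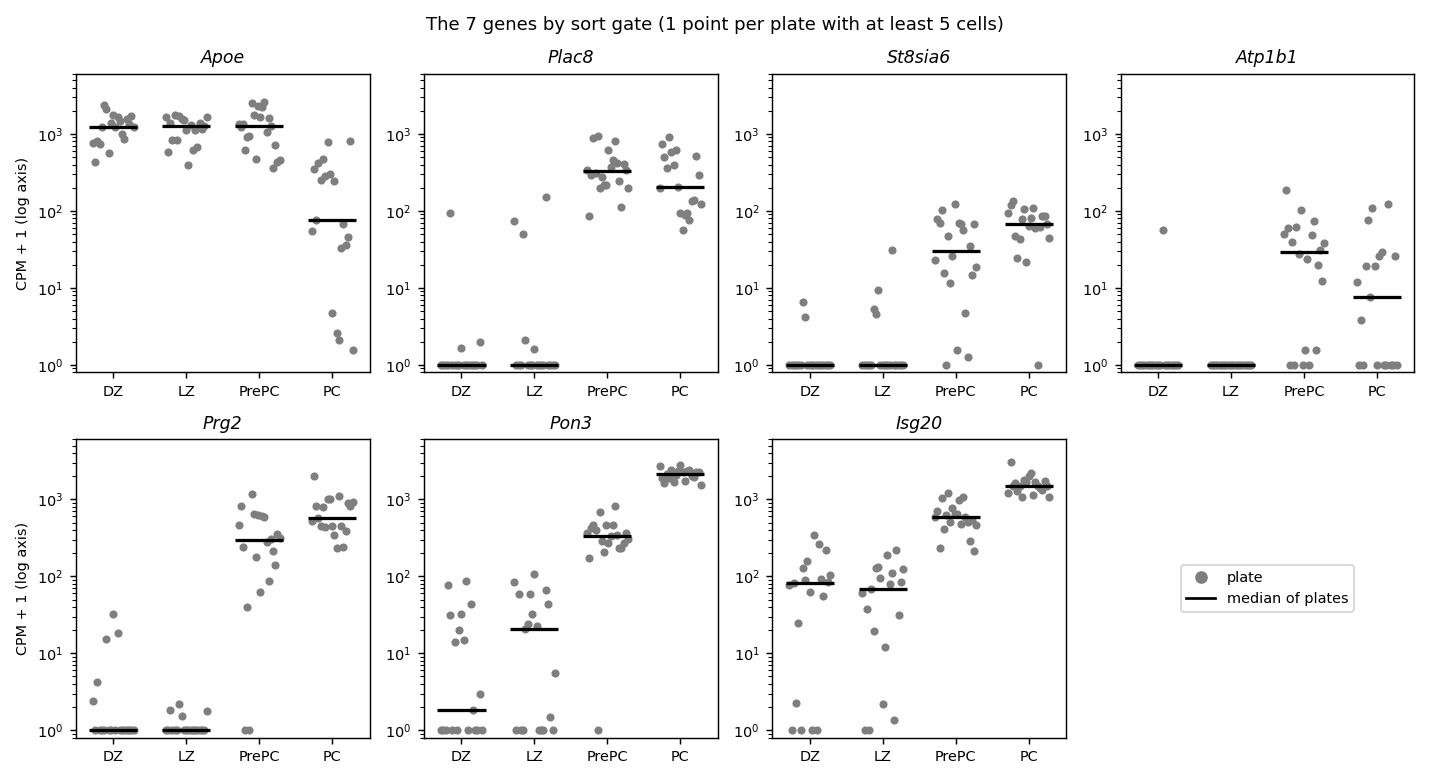
Level of each gene (CPM + 1, log axis) by sort gate; each point is a plate with at least 5 cells and bars are medians of plates. Apoe has similar medians from DZ to PrePC and a lower one in the PC gate, 74.7 CPM, where Pon3 has its highest median, 2161 CPM.

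Unlike the others, Apoe had similar levels in the pre-plasma and germinal centre gates, with the mixed states of the pre-plasma gate pooled. Its plate medians were 1244 CPM in the DZ gate, 1282 in the LZ gate and 1251 in the pre-plasma gate, and it was higher in the pre-plasma gate on 11 of 19 plates. The plasma gate was lower, at 0.549 to 816 CPM with a median of 74.7, below the pre-plasma gate on 17 of 19 plates with overlapping ranges. The fitted log2 differences, with the plate as a block, were -0.10 ± 0.22 for the pre-plasma against the germinal centre gates and -3.46 ± 0.68 for the plasma against the pre-plasma gate (SE, 19 plates).

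Between the pre-plasma and plasma gates, Pon3 ran from 171 to 827 CPM (median 342) in the first and from 1521 to 2767 (median 2161) in the second, with all 19 shared plates higher and no overlap, where 0.565% of 7074 genes had plate ranges apart. Isg20 went from a median of 583 to one of 1505 CPM and was higher on 19 of 19 plates, although the ranges met (213 to 1197 and 1072 to 3054). Prg2 was higher on 14 of 19 plates and St8sia6 on 15. Plac8 and Atp1b1 were higher in the plasma gate on only 8 and 7 plates, with log2 differences of -0.20 ± 0.39 and -1.93 ± 1.47 (SE). Of the 7 genes, Atp1b1 alone did not pass the filter on low counts in the first of these comparisons, and all 7 passed in the second.

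Within the pre-plasma gate the authors' continuum classes (Low 99, Int 53 and High 130 cells) gave rising pooled levels from Low to High for all of these genes except Apoe. Pon3 stood at 13.2, 240 and 590 CPM, Prg2 at 34.7, 93.1 and 701, and Isg20 at 117, 167 and 1078. Apoe went from 891 to 289 and back to 1966 CPM, with 96.3% of the Int counts from 5 cells. St8sia6 stood at 1.28, 45.2 and 60.9 CPM, Plac8 at 129.5, 337 and 440.5 and Atp1b1 at 23.1, 30.4 and 50.5. These classes were drawn from the same RNA and describe it only.

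The plasma state held 128 cells from the pre-plasma gate and 351 from the plasma gate, so the gates could be compared inside 1 annotation. Apoe ran from 312 to 4634 CPM (median 1932) over the 17 plates of pre-plasma-gate plasma cells and from 0 to 816 (median 54.4) in the plasma gate of the same plates. It was lower in the plasma gate on 16 of the 17, and the ranges overlapped. After thinning, 50.8% of the first and 6.59% of the second had an Apoe count. Pon3 ran from 219 to 969 CPM (median 578) and from 1521 to 2738 (median 2214), higher in the plasma gate on 17 of 17 plates with no overlap, where 0.0729% of 6858 genes had ranges apart. Isg20 was higher in the plasma gate on 16 of 17 plates, at pooled levels of 1043 and 1517 CPM. Prg2 stood at 661 CPM in the pre-plasma-gate cells and 636 in the plasma-gate ones, while Plac8 stood at 428 and 254 CPM and Atp1b1 at 50.6 and 27.3.

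Beside these values, macrophage markers, of which 13 of 14 were in the table, summed to 368 CPM in the pre-plasma-gate plasma cells (plates 116 to 677) and 445 in the plasma-gate ones (79.0 to 757), mostly Ctsd. Of the 13, 3 were at 0 in the first (Adgre1, Tyrobp and Cd5l) and 7 in the second, where C1qc, Csf1r, Marco and Vcam1 were at 0 too. Over the whole plasma state these last 4 stood at 0.0219 to 0.0439 CPM, from 1 or 2 cells each. In the activated cells C1qa, C1qb, C1qc and Csf1r were at 0. Of the eosinophil markers other than Prg2, 4 of 9 were in the table. They were all at 0 in the memory-like cells, where Prg2 stood at 982 CPM, and summed to 33.8 CPM in the plasma state, almost all Prg3. Split by gate, plasma-state cells had a sum of 73.3 CPM (pre-plasma gate) and 9.71 CPM (plasma gate). What these other cell types contribute to the gate values was not tested.

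**Figure D3:**
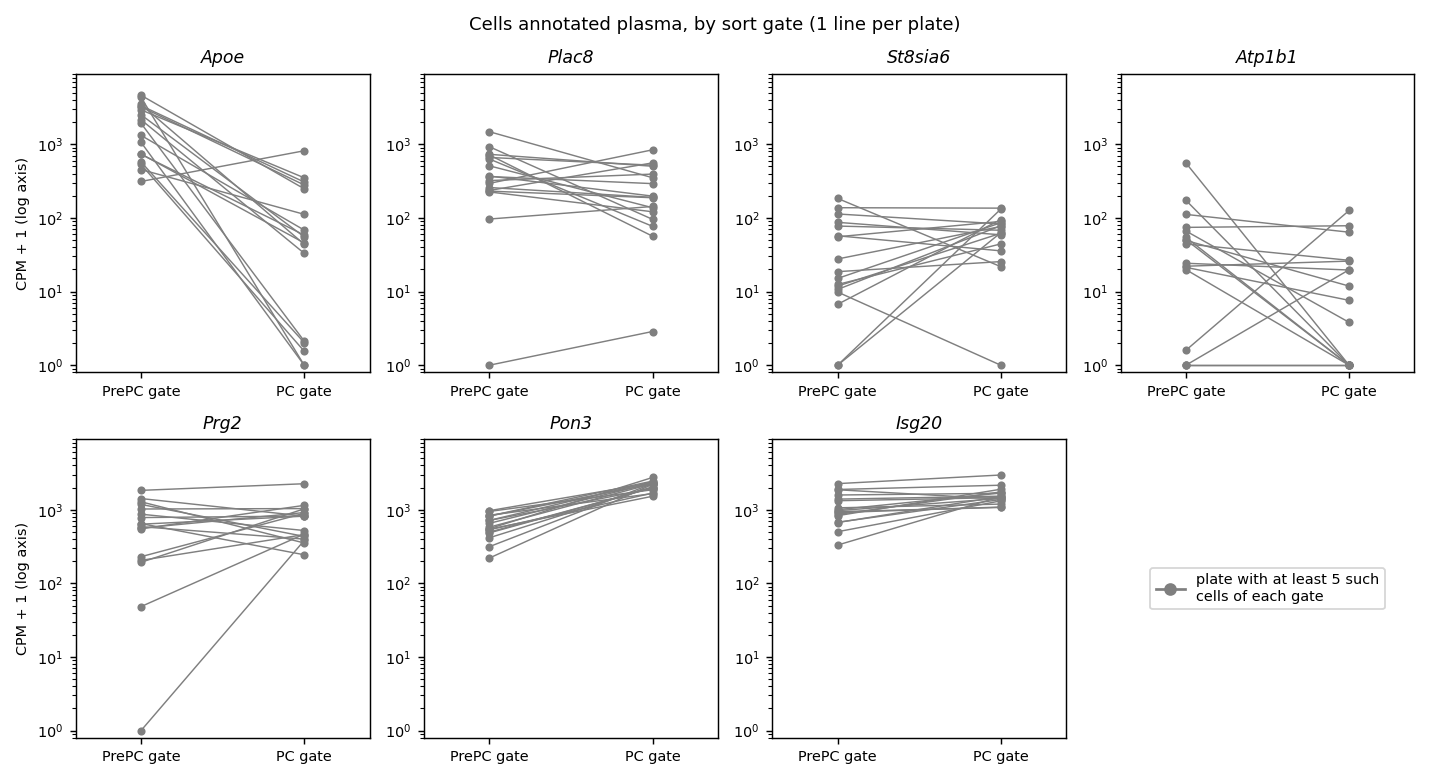
Level of each gene (CPM + 1, log axis) in plasma-state cells of the PrePC and PC gates; each line joins the 2 values of 1 plate. Apoe is lower in the PC gate on 16 of 17 plates and Pon3 higher on 17 of 17.

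Surface syndecan-1 (CD138), the antigen that plasma cells gain, was recorded for each cell at sorting. Over the 480 plasma-state cells its Spearman correlation was -0.56 with Apoe and 0.51 with Pon3. Inside the gates Apoe gave -0.01 (128 pre-plasma-gate cells) and -0.11 (351 plasma-gate cells), and Pon3 -0.02 and 0.29. Of the other surface proteins read, B220 gave Apoe its largest value in these pre-plasma-gate cells, 0.52, and gave 0.14 in the plasma-gate ones. These cells share plates and differ in depth, and the gates were set on surface staining, so the pooled values restate the gates in part.

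Cell cycle phase was not used to list the genes, and the plasma state could be tested for it. On the 15 plates with at least 5 cells of each kind, plasma-state cells in S or G2M (cycling) were compared with those in G1, with the plate as a block. Apoe, Prg2, Pon3 and Isg20 were lower in cycling cells, and none of the 7 was higher. That is 4 of 7, where 7.19% of 5760 genes were called lower and 15.3% were called in either direction (edgeR quasi-likelihood test, Benjamini-Hochberg adjusted p under 0.05). The median log2 difference was -1.52 over the 7 genes and 0.05 over all genes tested.

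Pon3 ran from 221 to 1594 CPM (median 810) in cycling pools and from 1681 to 2980 (median 2337) in G1 pools. The ranges did not overlap, as for 1.43% of 6835 genes, and cycling was lower on 15 of 15 plates. The log2 difference was -1.95 ± 0.16 (SE; edgeR adjusted p = 1.17e-08). Prg2 ran from 13.0 to 472 CPM (median 84.7) against 404 to 1884 (median 1124), lower on 15 of 15 plates, by -3.80 ± 0.46 (edgeR adjusted p = 2.57e-06). Isg20 ran from 193 to 2242 CPM (median 788) against 1251 to 2927 (median 1809), lower on 14 of 15 plates, by -1.52 ± 0.20 (edgeR adjusted p = 9.63e-06).

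Apoe was the most uneven of the 4. It ran from 2.22 to 1318 CPM (median 68.8) in cycling pools and from 44.7 to 3311 (median 1103) in G1 pools, and was lower on 13 of 15 plates, by -4.21 ± 1.02 (edgeR adjusted p = 0.00576). With sampleID in place of the plate block the Apoe difference was -2.40 (edgeR adjusted p = 0.0262). Plac8 (-0.25 ± 0.71), St8sia6 (-0.58 ± 0.66) and Atp1b1 (0.74 ± 1.88) did not pass, with edgeR adjusted p of 0.876, 0.649 and 0.861 and standard errors that leave room for differences of either sign.

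**Figure D4:**
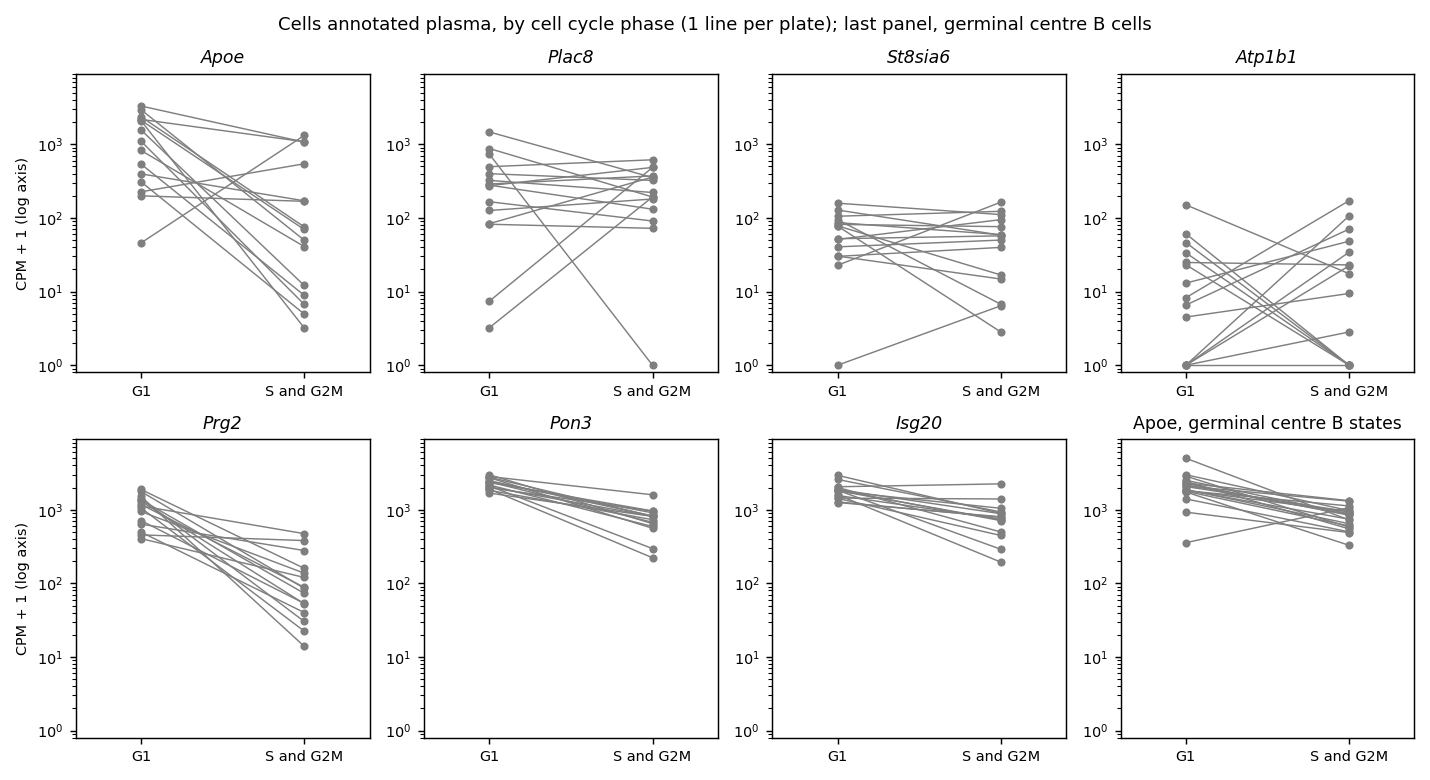
Level (CPM + 1, log axis) in G1 and in S and G2M cells; each line joins the 2 values of 1 plate, for plasma-state cells (7 panels) and for Apoe in germinal centre B states (last panel). Pon3 and Prg2 are lower in S and G2M on 15 of 15 plates, and Apoe on 13 of 15 in plasma-state cells and 18 of 19 in germinal centre cells.

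Phase and gate were linked in the plasma state. Of its cycling cells 61 came from the pre-plasma gate and 56 from the plasma gate, against 67 and 295 of the G1 cells, and cycling cells had a median of 157183 counts against 61156. For Apoe the pooled levels were 4734 CPM in G1 cells of the pre-plasma gate (5435 in C57BL/6F, 4030 in C57BL/6M), 506 in cycling cells of that gate, 167 in G1 cells of the plasma gate and 23.1 in cycling cells there. Prg2 stood at 1769, 141, 858 and 125 CPM in the same order, so its cycling cells were low in both gates. With plasma-gate cells only, 3 plates were left, a comparison added after the data were seen. Prg2 (-3.60, edgeR adjusted p = 0.00774) and Pon3 (-1.53, p = 0.0150) still passed, and Apoe (-3.85, p = 0.309) and Isg20 (-0.96, p = 0.184) did not. For each of the 4 genes this was the highest adjusted p over all alternatives, and the next highest among them was the 0.0262 of Apoe.

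Many plasma cell genes were lower too. Of 25 other plasma cell identity genes tested, 18 were lower in cycling plasma-state cells and none higher, with a median log2 difference of -1.30. Of 18 interferon-stimulated genes tested 5 were lower, with a median of -1.21.

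Germinal centre B cells were then compared by phase, a comparison chosen after Apoe levels by phase had been seen. Apoe ran from 328 to 1325 CPM (median 842) in cycling pools and from 356 to 4995 (median 2061) in G1 pools of 19 plates, and was lower on 18 of 19. The log2 difference was -1.26 ± 0.18 (SE; edgeR adjusted p = 9.18e-06), while the median over all genes tested was 0.77 higher in cycling cells. Both zones shared the pattern, with 2010, 1165 and 798 CPM in G1, S and G2M of DZ cells and 2397, 907 and 837 in LZ cells.

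Of the 7 genes, Plac8, Prg2, St8sia6 and Atp1b1 did not pass the filter in this comparison. Apoe was called lower and Pon3 higher, where 11.2% of 5854 genes were called. Pon3 was higher by 4.27 ± 1.14 (edgeR adjusted p = 0.0123) at levels near its floor, and did not pass with sampleID in place of the plate block (0.63, p = 0.891) or with the authors' second phase column (1.75, p = 0.631), where other alternatives went down to 0.000682. Isg20 did not pass (0.10 on the log2 scale).

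The 2 sampleIDs gave no called difference for any of the 7 genes. This held for the plasma state (9 plates of C57BL/6F against 10 of C57BL/6M, 0.956% of 7216 genes called) and for the pre-plasma gate (10 against 10, 0.744% of 6449 genes called). In both, none of the 7 passed an unadjusted p of 0.05 in edgeR and none was called by DESeq2. The cell table gives the F or M of a cell in its column for sex, so sex, mice and handling go together in this comparison and cannot be told apart.

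Plasma-state cells expressing IgM were compared with those expressing IgG on the 7 plates with enough of both (55 and 138 cells). None of the 7 genes passed, where 0.263% of 5712 genes were called, 2 had an unadjusted p under 0.05 and DESeq2 called 1. That gene was Prg2. It ran from 47.7 to 605 CPM (median 429) in IgM pools and from 302 to 1337 (median 873) in IgG pools, lower in IgM on 6 of 7 plates with overlapping ranges. Its log2 difference was -1.53 ± 0.45 (edgeR adjusted p = 0.501; DESeq2 adjusted p = 0.0292), and over all alternatives the adjusted p ran from 0.000571 (no filter on low counts) to 0.694.

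Plasma-state cells with a mutated heavy chain were compared with unmutated ones on 19 plates (212 and 263 cells). None of the 7 genes passed, where 0.164% of 5495 genes were called, 3 had an unadjusted p under 0.05 and DESeq2 called 2, Plac8 and Atp1b1. Plac8 ran from 0 to 555 CPM (median 138) in mutated pools and from 0 to 1034 (median 346) in unmutated pools, lower in mutated on 15 of 19 plates. Its log2 difference was -1.72 ± 0.56 (edgeR adjusted p = 0.875; DESeq2 adjusted p = 0.0138), and over all alternatives the adjusted p ran from 0.00156 (no filter) to 1. Atp1b1 had a median of 0 CPM in mutated pools and 23.6 in unmutated pools, lower on 12 plates and equal on 2 of 19 (edgeR adjusted p = 1; DESeq2 adjusted p = 8.32e-06, and 0.551 to 1 in the other alternatives).

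The listed genes did not form 1 block. Over 65 pools of a plate and state with at least 5 cells, Pearson correlations of log2(CPM + 10) were 0.89 between Pon3 and Prg2, 0.80 between Pon3 and Isg20 and 0.75 between Prg2 and Isg20. Apoe ranged from -0.33 to 0.20 with the other 6. The pools were 19 each of DZ, LZ and plasma, 6 memory-like and 2 LZtoDZ. Activated and pre-memory cells gave no pool, so the correlations do not cover them. The pools share plates, and their states set most of the pattern, so these are descriptions. Among 7184 genes, the genes most like Pon3 were Fkbp11 (0.92), Tmem154 (0.92) and Tmed10 (0.91), and those most like Prg2 were Tmed10 (0.90), Cdh23 (0.89) and Mzb1 (0.89). Fkbp11, Tmed10 and Mzb1 are genes of the secretory pathway. For Isg20 they were Tmem154, Sdf2l1 and Fkbp11 (0.81 each).

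Apoe was most like H2-Ob (0.71), Cd79a (0.70) and Apobec3 (0.70). Plac8 was most like Ly6c2 (0.72), Selplg (0.69) and Entpd1 (0.68), where Selplg encodes the selectin ligand PSGL-1. St8sia6 was most like Entpd1 (0.77), and Atp1b1 most like S100a1 (0.74). In single plasma-state cells thinned alike, a median of 3 of the 7 genes was seen, against 1 in DZ, LZ, activated and memory-like cells. Cells with 4 or more made up 31.3% of plasma-state cells of the pre-plasma gate and 16.9% of those of the plasma gate. They made up 3.45% of activated and 6.25% of memory-like cells (29 and 48 thinned cells).

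Other genes of the listed genes' pathways moved in part. Against the germinal centre gates, 2 of 18 interferon-stimulated genes tested rose in the pre-plasma gate, Isg15 (log2 6.22 ± 1.16, edgeR adjusted p = 0.000322) and the tetherin gene Bst2 (2.25 ± 0.41, p = 0.000213), with a median of -0.19, the same as that of all 7150 genes tested (15.2% called). Of 11 genes of sialic acid synthesis and recognition, 3 rose and 2 fell: Gne, the first enzyme of sialic acid synthesis, rose by 3.92 ± 0.94 and the sialic acid receptor Cd22 fell by 2.52. Of 8 sodium pump and ion transport genes 3 rose, with the pump regulator Fxyd5 at 3.60 ± 0.76. Of 13 genes of lipid transport 3 rose and 1 fell, with the fatty acid receptor Cd36 at 6.12 ± 0.86 and the cholesterol carrier Npc2 at 2.17 ± 0.18.

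From the pre-plasma to the plasma gate, where 18.1% of 6564 genes were called, 4 of 20 interferon-stimulated genes rose, with Zbp1 at 3.17 ± 0.61 and Bst2 at 2.01 ± 0.19 (SE). Of 12 sialic acid genes 4 rose and 1 fell, Gne by 1.24 ± 0.43 and Cd22 at -7.19 ± 1.06. Cd36 fell in this comparison (-3.65 ± 0.86, SE). Npc2 rose (1.39 ± 0.10), and so did Pon2, the paraoxonase next to Pon3 in name and family (0.89 ± 0.19). The comparisons share the pre-plasma gate cells, so their values are not independent.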

How the data were processed

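Single cells were index-sorted, reverse transcribed and preamplified for 22 cycles, per the labels' protocols. The submitters' processing notes name mm10 as the build and list HTSeq 0.9.1 and STAR 2.5.3a. The deposited count table is made of whole numbers for each gene in each cell, with 1024 as its highest value, the ceiling of a 5-base molecular identifier. The authors deposited states, gates, phases, heavy-chain calls, surface fluorescence as transformed scores, and the fraction of spike-in reads per cell. Plates are not tied to single GEO samples in the sources used here, so plate numbers are the authors'.

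Counts were summed per plate and class (at least 5 cells) and tested with edgeR 4.0.16 (quasi-likelihood, TMM scaling, filterByExpr, plate as a block; Benjamini-Hochberg) in R 4.3.3; the state fit used 14 pools of 7 states and 2 sampleIDs. DESeq2 1.42.0, other scaling, filters, thinning, pool sizes, phase calls, gates and left-out plates were alternatives. Plates may share animals, so p-values measure the spread between plates. IgM or IgG was read from the first 5 bases after the variable region, matched to GENCODE M21 constant regions, in 93 and 377 plasma-state cells. No doublet caller was run, since each well took 1 sorted cell. The fits were tested on simulated counts. The genes and lists were chosen with earlier results of these data known. Named pathway genes were the largest changes of each list among those past the threshold, at most 3 a list; 1 gene that this rule names is not reported here.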

Additional observations from a re-analysis of the deposited data

Results flagged for a closer look

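Single plates stood far from the other plates of their sampleID in 11 of 42 groups of plates examined, by the gap to the nearest other plate over the range of the group (Dixon's 95% critical value). For independent groups of normally distributed values about 1 in 20 would be by chance. These groups share plates and cells across gates and states, and their CPM values were not transformed and include zeros. That rate is therefore no guide to the number found here. Plate 2 of C57BL/6F, with 12 plasma-gate and 14 plasma-state cells, gave 5 of them. In the plasma gate it held 2026 CPM of Prg2 (other 8 plates 433 to 1021) and 3054 of Isg20 (1086 to 1773). In the plasma state it held 2099 CPM of Prg2 (others 232 to 1062), 202 of Atp1b1 (0 to 88.9) and 2705 of Isg20 (899 to 1580).

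The other 6 were in C57BL/6M. In the plasma gate, plate 19 held 816 CPM of Apoe (others 0.549 to 245), plate 18 held 519 of Plac8 (54.8 to 291) and plate 16 held 122 of Atp1b1 (0 to 28.5). In the pre-plasma gate, plate 14 held 827 CPM of Pon3 (others 232 to 465). In the plasma state, plate 12 held 2316 CPM of Apoe (others 161 to 837) and plate 11 held 2413 of Pon3 (1227 to 1807).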

How the results depend on the processing

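Of 367 values of the 7 genes recomputed in tested comparisons, 344 kept their direction and side of the threshold, 4 lost and 6 gained a call and 13 changed sign. Of the 95 counts of called genes, 58 stayed within 1.5 times the main one. In the cycling comparison of plasma-state cells, leaving out each plate gave 767 to 1050 called genes, and Apoe, Prg2, Pon3 and Isg20 kept their calls in each of these fits (Apoe -3.83 to -4.60). Pools of at least 10 cells left too few plates for that comparison and for IgM against IgG and were not run. The plate was the block of the paired fits, except by sampleID, whose groups share no plate, and by state, where plates were pooled within a sampleID.

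Signs changed for uncalled genes only. Thinned to 5000 counts, C57BL/6M against C57BL/6F gave Isg20 -0.11 in the plasma state and Plac8 -0.59 in the pre-plasma gate; without immunoglobulin genes it gave Pon3 -0.024 there. In cycling plasma-state cells Plac8 was 0.011 with the second phase column, from -0.51 (without plate 15) to 0.026 (without plate 7) when a plate was left out and 1.67 in plasma-gate cells, and Atp1b1 was -1.65 with the second phase column and -5.09 in plasma-gate cells. In germinal centre cells Isg20 by phase was -0.0043 with DESeq2, -0.068 with DESeq2 size factors, -0.58 with sampleID in place of the plate and -0.98 with the second phase column. Pon3 in mutated cells was 0.069 in plasma-gate cells.

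Counts of called genes moved as follows, and the cause was not tested. For the pre-plasma against the germinal centre gates (1089) they were 1966 with DESeq2 and 603 thinned, and for the plasma against the pre-plasma gate (1189) 2149 and 720. For activated against germinal centre states (133) they were 704 with DESeq2, 233 with no filter and 861 with only those states. For memory-like against plasma (8) they were 1317 with DESeq2, 32 with its size factors, 47 with no filter, 26 thinned and 19 with only those states. For activated against memory-like (103) they were 1844 with DESeq2, 211 with no filter, 317 thinned and 53 with memory-like cells of the pre-plasma gate. By sampleID they were 112 with DESeq2 and 32 in plasma-gate cells for the plasma state (69), and 84 with DESeq2, 30 with its size factors and 19 thinned for the pre-plasma gate (48). By phase they were 1731 with DESeq2, 426 thinned and 61 in plasma-gate cells for the plasma state (882), and 1504 with DESeq2, 993 with no filter, 327 thinned and 385 with sampleID for germinal centre cells (653). For IgM against IgG (15) they were 208 with DESeq2, 72 with no filter and 0 without immunoglobulin genes. For mutated cells (9) they were 108 with DESeq2, 42 with no filter, 4 without immunoglobulin genes, 4 with pools of 10 cells, 16 with sampleID and 5 in plasma-gate cells. The plasma-gate, second-phase, left-out-plate and memory-like alternatives, and the germinal centre phase comparison, were chosen after seeing the data.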

Other observations

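Co-detection of the genes in single plasma-state cells was read after thinning to 5000 counts, a description chosen after the data were seen. Of the 89 cells with an Apoe count 57.3% also had Prg2, against 33.2% of the cells without Apoe. Pon3 went the other way, at 65.2% and 88.2%. The shares were 20.2% and 23.9% for Plac8, 11.2% and 11.8% for St8sia6, 11.2% and 4.11% for Atp1b1 and 87.6% and 82.8% for Isg20. Phase and gate differ between cells with and without Apoe, and their part in these shares was not tested.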
